A study of Homo sapiens with 17 samples.

Results

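HRAS was followed in human fibroblasts with 9 feedback genes of the mitogen-activated protein kinase (MAPK) pathway, which served as a readout of RAS output. RAS was activated in some cells to bring on senescence, and SMARCA4 was knocked down in some of these. The genes were chosen by name, with earlier results of these data known, so their shares beside all genes are descriptions. They were HRAS, the dual-specificity phosphatases DUSP4, DUSP5 and DUSP6, the inhibitors SPRY2, SPRY4, SPRED1 and SPRED2, and the transcription factors ETV4 and ETV5. These are 10 of the 62754 genes in each deposited table, and all 10 were among the 19473 genes that passed the filter on low counts. The 17 RNA libraries came from IMR90 ER:RAS cells, normal human lung fibroblasts transduced with the retroviral vector pLNC ER:RAS-neo. It encodes RAS with the G12V change joined to an oestrogen receptor (ER) domain, and 4-hydroxytamoxifen (4OHT) activates the fusion protein and drives the cells into oncogene-induced senescence. All cells also received siRNA, either non-targeting (siNT) or against SMARCA4 (siSMARCA4), whose product drives SWI/SNF nucleosome remodelling, and RNA was taken on day 7 after 4OHT or its DMSO control. There were 5 libraries of DMSO siNT, 6 of 4OHT siNT and 6 of 4OHT siSMARCA4, and no library combined DMSO with siSMARCA4. Each library is named by its siRNA number, 2 or 4, and a replicate tag with the ending V or VM, and the labels explain neither. The 6 4OHT siNT libraries were all VM, the DMSO siNT libraries were 2 V and 3 VM, and the 4OHT siSMARCA4 libraries were 3 V and 3 VM. The labels do not say that the libraries of a group came from separate cultures, so the p-values measure the spread between these samples, which may be technical.

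RAS proteins are small GTPases that pass growth factor signals to the kinases RAF, MEK and ERK. Active ERK switches on genes whose products restrain the same pathway. DUSP phosphatases take the phosphates off ERK, SPRY and SPRED proteins act further upstream near RAS and RAF, and ETV4 and ETV5 are ETS-family transcription factors whose expression is widely used as a mark of ERK activity. Strong RAS signalling in primary fibroblasts is known to engage this negative feedback on the way to senescence.

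The DNA just before the start of the genes is shown for 4 members, because DUSP6, SPRY4 and SPRED2 were higher in every 4OHT siNT library than in any DMSO siNT library, whereas SPRED1, the relative of SPRED2, overlapped between these groups. RefSeq windows (GRCh38.p14) were matched for 6 of the 10 genes, in 9 windows, and each printed run is the 250 bases before a gene's start, 5′ to 3′ on the gene's strand. They lie at chr12:89352502-89352751 (DUSP6, minus strand), chr5:142324248-142324497 (SPRY4, minus strand), chr15:38252586-38252835 (SPRED1, plus strand) and chr2:65432600-65432849 (SPRED2, minus strand, the first of its 2 windows). The SPRY4 window lies within the span that GENCODE 44 gives the gene and the SPRED2 window overlaps its span at the gene's 5′ end. Capitals mark GGAA, the core bound by ETS factors, read on either strand (TTCC on the printed one).
DUSP6: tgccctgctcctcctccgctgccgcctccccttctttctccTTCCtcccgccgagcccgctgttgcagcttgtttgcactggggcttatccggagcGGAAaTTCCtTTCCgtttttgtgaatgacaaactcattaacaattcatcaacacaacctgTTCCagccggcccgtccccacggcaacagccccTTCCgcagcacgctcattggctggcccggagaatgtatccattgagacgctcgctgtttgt
SPRY4: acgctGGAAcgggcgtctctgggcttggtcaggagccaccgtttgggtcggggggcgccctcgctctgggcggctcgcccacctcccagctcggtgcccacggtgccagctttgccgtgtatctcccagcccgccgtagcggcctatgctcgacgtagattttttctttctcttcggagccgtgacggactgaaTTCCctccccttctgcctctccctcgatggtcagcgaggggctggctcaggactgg
SPRED1: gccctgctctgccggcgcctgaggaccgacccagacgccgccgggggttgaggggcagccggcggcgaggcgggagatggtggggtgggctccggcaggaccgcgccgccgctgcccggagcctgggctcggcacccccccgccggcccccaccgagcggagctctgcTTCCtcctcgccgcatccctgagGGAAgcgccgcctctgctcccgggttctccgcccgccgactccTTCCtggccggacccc
SPRED2: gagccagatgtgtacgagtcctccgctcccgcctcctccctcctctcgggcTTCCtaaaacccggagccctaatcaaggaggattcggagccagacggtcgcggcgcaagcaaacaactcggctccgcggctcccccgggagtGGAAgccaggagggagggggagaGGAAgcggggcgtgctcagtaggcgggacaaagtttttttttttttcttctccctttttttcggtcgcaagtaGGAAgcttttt

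DUSP6 held 6 such cores in its window, SPRY4 held 2, SPRED1 held 3 and SPRED2 held 4. HRAS and SPRY2, also higher in every 4OHT siNT library, have windows that are not printed. HRAS held 2 cores, the 3 windows of SPRY2 held 3, 4 and 4, and the second window of SPRED2 held 5. A window of this length held at least 1 core in 92.7% of the 35116 windows of all genes, with a median of 3. The AP-1 site TGANTCA was in 6.57% and the cyclic AMP response element TGACGTCA in 1.65% of all windows. Neither was found on either strand in any of the 9 windows of the members.

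SMARCA4 itself checked the labels. Its counts-per-million level (CPM, of the scaled library total) was 168, 192, 205, 212 and 215 in the DMSO siNT libraries, with a lowest, median and highest value of 252, 264 and 285 in 4OHT siNT and of 68.4, 80.4 and 126 in 4OHT siSMARCA4. It rose with 4OHT (log2 0.44 ± 0.13, SE, adjusted p = 0.00851, edgeR). No library of the knockdown group reached either other group, and the log2 fold change against 4OHT siNT was -1.61 ± 0.13 (SE, adjusted p = 5.13e-07, edgeR). Library totals ran from 39109479 to 68978119 counts. The summed level of 11 fibroblast markers was 29041 to 35336 CPM in DMSO siNT, 18067 to 28025 in 4OHT siNT and 9547 to 16788 in 4OHT siSMARCA4, whereas 12 markers of other cell types summed to 22.4 to 35.5 CPM in all libraries, most of it from CD68, a lysosomal gene used as a macrophage marker (19.9 to 30.4 CPM), with the keratin gene KRT5 at 0 in each and the T cell gene CD3E at 0 in 16. With 4OHT, 27.4% of all tested genes were called lower and 27.0% higher (adjusted p under 0.05, edgeR). With siSMARCA4 against 4OHT siNT the shares were 13.8% and 10.4%. Of the fibroblast markers 7 fell and 1 rose with 4OHT, and 8 fell and 0 rose with siSMARCA4. Of the 4 other markers that passed the filter, 2 rose (the endothelial genes PECAM1 and VWF, at most 1.11 and 4.52 CPM) and 1 fell with 4OHT, and 2 fell with siSMARCA4. Of 8 proliferation genes, all 8 fell with 4OHT in siNT cells. With siSMARCA4, against 28.6% of all genes, all 8 were still lower than in DMSO siNT. Against 4OHT siNT 3 of them rose with siSMARCA4 (TOP2A by 0.68 ± 0.19, CDK1 by 1.39 ± 0.31 and BUB1 by 0.83 ± 0.21, log2, SE), each with libraries that overlapped between these groups. Their means with siSMARCA4 were 6.33, 1.35 and 0.931 CPM, against 95.4, 22.2 and 18.9 CPM in DMSO siNT. The fibroblast sum and the proliferation genes moved with the groups below, and their part in the results was not tested. In bulk RNA, fewer cells that express a gene and less RNA per cell cannot be told apart.

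The first question was what activated RAS did to the members, which were chosen with earlier results of these data known. With 4OHT, 9 of the 10 rose and none had a negative value, against 27.0% of all tested genes called higher and 27.4% called lower, at an adjusted p under 0.05. The median log2 fold change of the 10 was 1.31, against 0.00 over all genes. In 8 of them the DMSO siNT and 4OHT siNT libraries did not overlap, which held for 39.6% of all genes. Without scaling factors between libraries the split of all called genes turned from 5256 higher and 5344 lower to 4222 higher and 6465 lower, with a median of all genes of -0.11, and 8 of the members were still called higher.

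**Figure D1:**
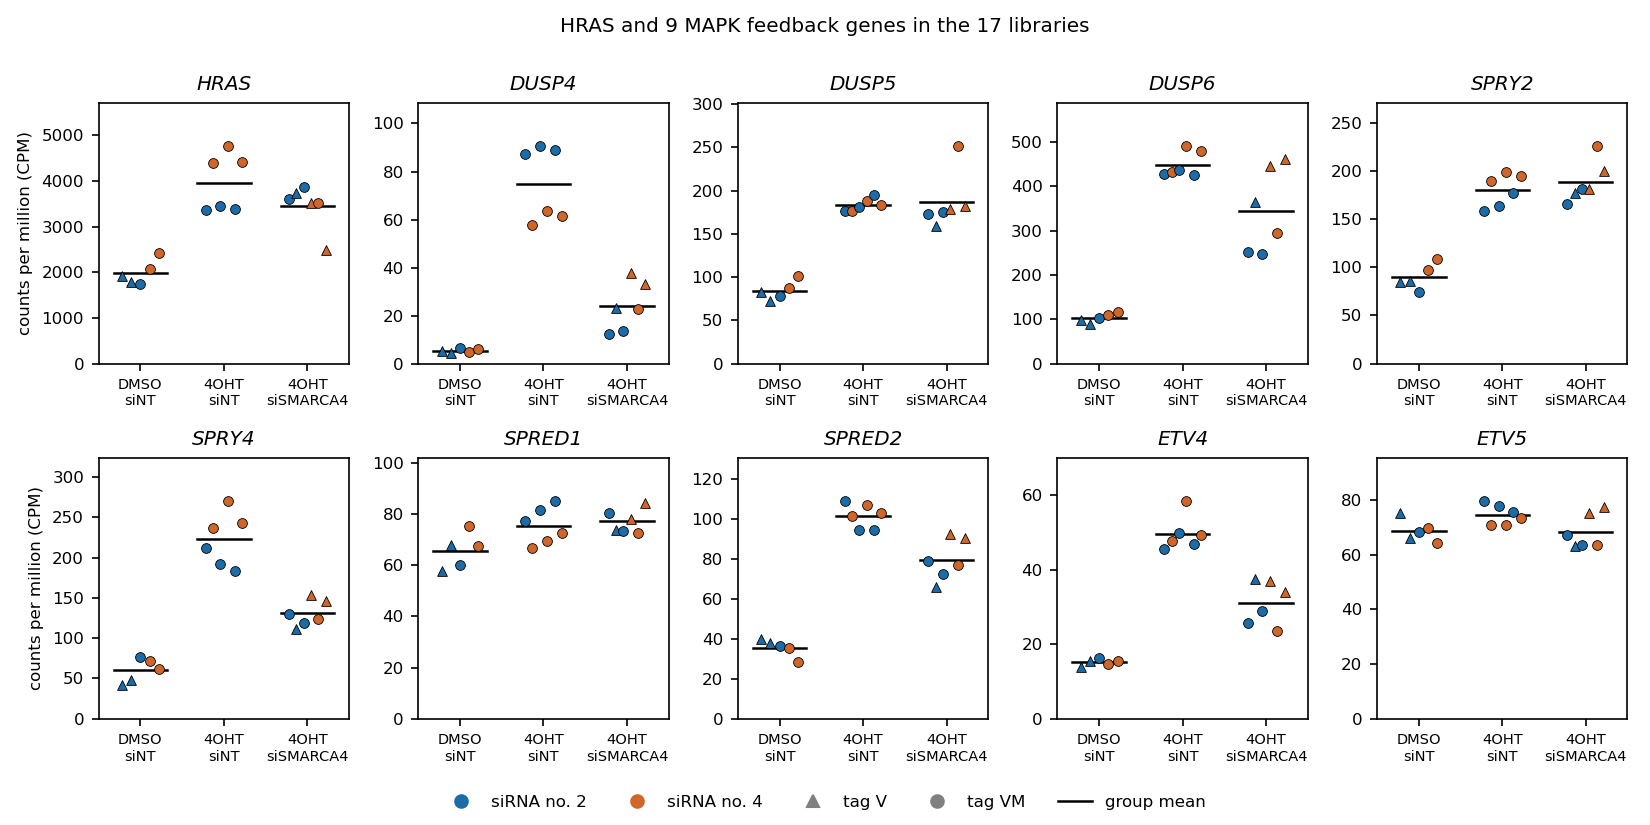
Levels in CPM (linear axes from 0) of each of the 10 genes in the 17 libraries, by group; each point is 1 library, its colour the siRNA number and its shape the V or VM tag, and bars are group means. HRAS roughly doubled with 4OHT from a mean of 1987 to 3963 CPM, DUSP4 rose from 5.38 to 74.9 CPM and was at 23.9 CPM with siSMARCA4, and ETV5 stayed between 63.2 and 79.5 CPM throughout.

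HRAS encodes one of the classical RAS proteins and lies on chromosome 11 (532242 to 537321, minus strand, GRCh38). The labels do not state which RAS gene the vector carries, and counts on HRAS cannot be divided here between the cell's own gene and a fusion transcript. Its level was 1921, 1789, 1739, 2073 and 2414 CPM in the DMSO siNT libraries. In 4OHT siNT the lowest, median and highest values were 3364, 3925 and 4766 CPM. All 6 induced libraries thus lay above all 5 controls, and the log2 fold change was 1.00 ± 0.13 (SE, adjusted p = 2.40e-06, edgeR). With siSMARCA4 the values were 2480, 3569 and 3866 CPM, between those of the other groups and overlapping 4OHT siNT. The difference from 4OHT siNT was -0.20 (95% interval -0.45 to 0.05, adjusted p = 0.254, edgeR) and was not called, and it was -0.12 without the siSMARCA4 library 4-3V.

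The HRAS values also went with the siRNA number. Among 4OHT siNT libraries the number 4 samples held 4401, 4766 and 4407 CPM of HRAS and the number 2 samples 3364, 3449 and 3392. In DMSO siNT number 4 also lay higher, at 2073 and 2414 CPM against 1921, 1789 and 1739 for number 2. Among 4OHT siSMARCA4 libraries the order was turned, with 3522, 3518 and 2480 CPM for number 4 and 3616, 3744 and 3866 for number 2. The labels do not say that a number links siNT to siSMARCA4 libraries, so differences between siNT libraries enter the effects by number. The knockdown effect on HRAS was 0.14 ± 0.12 with number 2 and -0.51 ± 0.12 with number 4 (log2, SE). Their difference of 0.65 ± 0.16 had an adjusted p of 0.0711 in edgeR, and passed the threshold in DESeq2 (adjusted p = 0.00767) and without the filter on low counts (adjusted p = 0.0282). Library 4-3V gave the lowest value of the knockdown group.

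NRAS, a close relative of HRAS, fell where HRAS rose. It was at 88.7, 88.8, 89.0, 82.7 and 81.7 CPM in DMSO siNT. In 4OHT siNT its lowest, median and highest values were 45.8, 53.5 and 59.96 CPM, all below the controls, and it fell by 0.71 ± 0.09 on the log2 scale (SE, adjusted p = 2.79e-06, edgeR). With siSMARCA4 the values were 70.3, 92.3 and 101 CPM, all above 4OHT siNT and overlapping DMSO siNT. NRAS thus rose with the knockdown, by 0.74 ± 0.09 against 4OHT siNT (log2, SE, adjusted p = 2.55e-05, edgeR), and its difference from DMSO siNT was 0.03 (95% interval -0.16 to 0.22).

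To compare these genes with each other, counts were divided by the length of each gene's joined exons. Per kilobase, HRAS stood 41.3 ± 7.38 times above NRAS in DMSO siNT (SD, n = 5), 137 ± 35.1 times in 4OHT siNT (SD, n = 6) and 71.1 times in 4OHT siSMARCA4 (48.4 to 89.1 over 6 libraries). The ratio was 100.7 or more in every 4OHT siNT library and 89.1 or less in every other library. It is given as a description with no test of its own. HRAS counts may hold the fusion transcript, which need not carry all these exons. The ratio therefore may not be that of the cell's own genes. Between 4OHT siNT and 4OHT siSMARCA4 NRAS rose and HRAS was not called, as given above.

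ESR1 is the gene of the oestrogen receptor whose domain the fusion uses, and its counts may also hold the fusion transcript. Its group means took the same order as those of HRAS, but its libraries within a group did not always. In 4OHT siSMARCA4, library 4-3V had the lowest HRAS (2480 CPM) and the highest ESR1 (733 CPM). It was at 398, 345, 296, 375 and 309 CPM in DMSO siNT and had a lowest, median and highest value of 594, 740.2 and 935 in 4OHT siNT and of 547, 606 and 733 with siSMARCA4. All induced libraries lay above the controls, with a log2 fold change of 1.13 ± 0.13 (SE, adjusted p = 5.84e-07, edgeR), and the knockdown difference of -0.28 (95% interval -0.53 to -0.02, adjusted p = 0.105, edgeR) was not called. For every 100 counts of HRAS there were 17.6 ± 3.01 counts of ESR1 in DMSO siNT (SD, n = 5), 19.0 ± 1.04 in 4OHT siNT (SD, n = 6) and 18.7 ± 5.60 in 4OHT siSMARCA4 (SD, n = 6). Library 4-3V of 4OHT siSMARCA4 had the highest ratio, with 29.6 counts of ESR1 per 100 of HRAS. Library 4-3VM of DMSO siNT had the lowest, with 12.8.

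**Figure D2:**
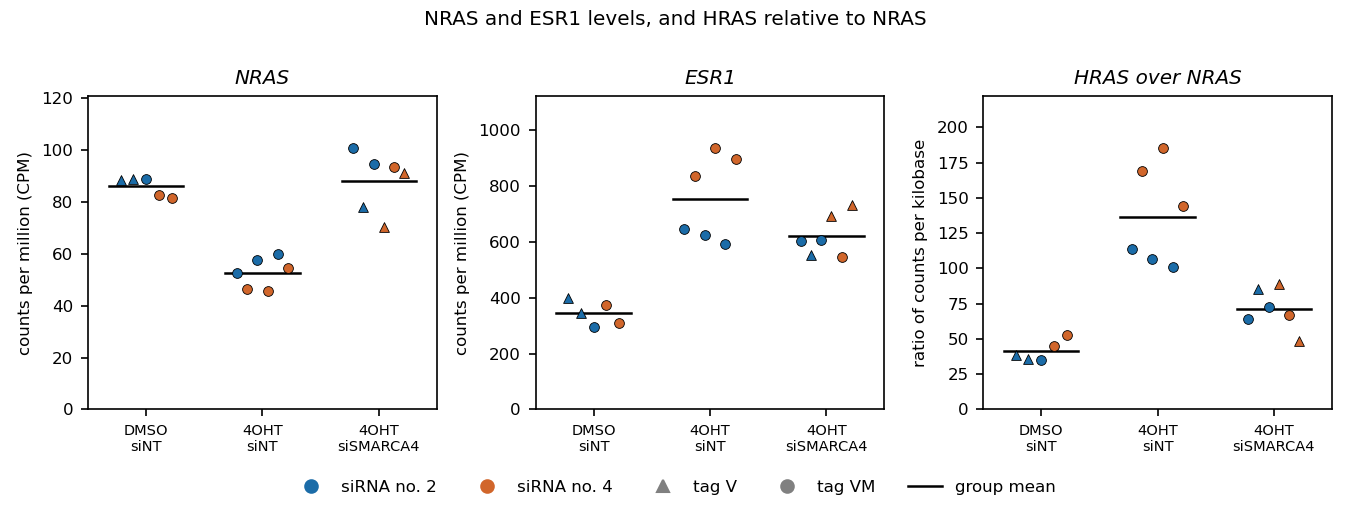
NRAS and ESR1 in CPM and the ratio of HRAS to NRAS in counts per kilobase (all axes linear from 0) in the 17 libraries, coloured by siRNA number and shaped by tag, with group means as bars. NRAS fell to a mean of 52.8 CPM with 4OHT and was at 88.0 CPM with siSMARCA4, ESR1 rose with 4OHT in every library, and the ratio was 41.3, 137 and 71.1 on average.

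The DUSP genes encode phosphatases that switch off MAP kinases. DUSP4, a nuclear enzyme that acts on ERK and its relatives (chromosome 8, 29333064 to 29350684, minus strand), showed the largest change of the members. It was low in DMSO siNT, at 5.16, 4.28, 6.33, 4.97 and 6.16 CPM. In 4OHT siNT its lowest, median and highest values were 57.8, 75.4 and 90.6 CPM, and with siSMARCA4 they were 12.5, 23.0 and 37.9 CPM. The 3 groups did not overlap. The rise with 4OHT was 13.9-fold (log2 3.80 ± 0.27, SE, adjusted p = 1.18e-09, edgeR), and the knockdown took it down by 1.65 ± 0.23 on the log2 scale (SE, adjusted p = 9.15e-05, edgeR). On average 26.6% ± 14.7 (SD, n = 6) of the rise in CPM was left, from 10.2% to 46.8% by library.

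DUSP6, the cytoplasmic phosphatase specific for ERK (chromosome 12, 89347235 to 89352501, minus strand), was at 98.4, 88.9, 103, 111 and 116 CPM in DMSO siNT. Its values in 4OHT siNT were tight, between 425 and 491 CPM with a median of 434. The 4.34-fold rise (log2 2.12 ± 0.15, SE, adjusted p = 1.16e-09, edgeR) separated the groups fully. With siSMARCA4 the libraries took separate ranges by tag. The VM libraries held 251, 248 and 296 CPM and the V libraries 364 (2-3V), 445 (4-2V) and 463 CPM (4-3V). All VM libraries and 2-3V lay below every 4OHT siNT library, and 4-2V and 4-3V overlapped them. The pooled difference was -0.38 (95% interval -0.67 to -0.09, adjusted p = 0.0501, edgeR) and just missed the threshold, and among VM libraries alone it was -0.75 ± 0.09 (SE, adjusted p = 5.53e-05, edgeR). It was called in 8 of 24 alternatives and not in 16. Leaving out library 4-2V or 4-3V brought it past the threshold, at -0.47 and -0.48, whereas it was -0.30 without the siSMARCA4 library 2-3VM (adjusted p = 0.116, edgeR) and -0.19 with number 4 libraries alone (adjusted p = 0.502, edgeR). DUSP6 shares 1105 exonic bases with antisense genes, and the counting was strand-specific.

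DUSP5, a nuclear ERK phosphatase (chromosome 10, 110497907 to 110511533, plus strand), doubled and stayed there. The DMSO siNT values were 82.5, 72.8, 78.5, 87.1 and 101 CPM, and the lowest, median and highest were 176, 182 and 195 CPM in 4OHT siNT. It rose 2.17-fold (log2 1.12 ± 0.11, SE, adjusted p = 4.47e-08, edgeR). With siSMARCA4 it was at 159, 177 and 251 CPM, and the difference from 4OHT siNT was 0.02 (95% interval -0.18 to 0.23, adjusted p = 0.892, edgeR).

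Both Sprouty genes among the members rose with 4OHT, and SPRY4 was called lower with siSMARCA4. Whether they differed from each other was not tested. SPRY2, an inhibitor that blocks receptor signals ahead of RAF (chromosome 13, 80335976 to 80341126, minus strand), was at 84.7, 85.2, 74.3, 96.9 and 108 CPM in DMSO siNT and at 158, 183 and 198 CPM (lowest, median and highest) in 4OHT siNT. It rose 2.01-fold with no overlap (log2 1.00 ± 0.10, SE, adjusted p = 1.03e-07, edgeR). With siSMARCA4 the values were 165, 181 and 226 CPM, and the difference from 4OHT siNT was 0.06 (95% interval -0.13 to 0.26), or 0.00609 without the siSMARCA4 library 4-2VM. SPRY4, its relative on chromosome 5 (142310427 to 142326455, minus strand), was at 41.7, 47.6, 77.0, 72.1 and 61.8 CPM in DMSO siNT. In 4OHT siNT its lowest, median and highest values were 184, 224 and 270.1 CPM, all above the controls, and with siSMARCA4 they were 111, 127 and 153 CPM, between the other groups with no overlap. SPRY4 rose 3.71-fold with 4OHT (log2 1.89 ± 0.15, SE, adjusted p = 5.24e-09, edgeR) and fell by 0.77 ± 0.14 with the knockdown (log2, SE, adjusted p = 0.000731, edgeR), which left 43.4% of the rise on average, from 31.4% to 57.3% by library.

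SPRED proteins carry a Sprouty domain and bring the RAS inhibitor neurofibromin to the membrane. SPRED2 (chromosome 2, 65310851 to 65432637, minus strand) was at 40.0, 37.9, 36.3, 35.5 and 28.1 CPM in DMSO siNT, at 94.4, 102 and 109 CPM in 4OHT siNT and at 65.8, 77.8 and 92.1 CPM with siSMARCA4 (lowest, median and highest). The groups again did not overlap, although the gap between the last pair was narrow. It rose 2.85-fold (log2 1.51 ± 0.10, SE, adjusted p = 2.85e-10, edgeR) and fell by 0.35 ± 0.09 with the knockdown (log2, SE, adjusted p = 0.00866, edgeR). With siRNA number 4 libraries alone the fall was -0.23 and not called. SPRED1 (chromosome 15, 38252836 to 38357249, plus strand) barely moved. It was at 57.7, 68.1, 60.1, 75.1 and 67.5 CPM in DMSO siNT, and its lowest, median and highest values were 66.5, 74.9 and 85.0 CPM in 4OHT siNT and 72.7, 75.8 and 84.2 CPM with siSMARCA4. The groups overlapped, and its call with 4OHT (log2 0.20 ± 0.08, SE, adjusted p = 0.0451, edgeR) was lost in 17 of 23 alternatives and turned to -0.0844 in another, with number 4 libraries alone. Among those 17 were DESeq2, the VM libraries alone and leaving out any of 8 single libraries.

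ETV4 and ETV5 are close relatives, and only the first was called with 4OHT. ETV4 (chromosome 17, 43527844 to 43579620, minus strand) was at 14.0, 15.6, 16.4, 14.7 and 15.4 CPM in DMSO siNT. Its lowest, median and highest values were 45.5, 48.5 and 58.4 CPM in 4OHT siNT and 23.5, 31.4 and 37.4 CPM with siSMARCA4, so that the 3 groups did not overlap. The rise was 3.26-fold (log2 1.71 ± 0.12, SE, adjusted p = 5.10e-10, edgeR) and the knockdown lowered it by 0.67 ± 0.11 (log2, SE, adjusted p = 0.000233, edgeR), leaving 46.2% ± 17.2 of the rise (SD, n = 6). ETV5 (chromosome 3, 186046314 to 186110318, minus strand) was at 75.1, 66.2, 68.3, 69.6 and 64.3 CPM in DMSO siNT, at 70.7, 74.5 and 79.5 CPM in 4OHT siNT and at 63.2, 65.3 and 77.5 CPM with siSMARCA4 (lowest, median and highest). Its log2 fold change with 4OHT was 0.12 (95% interval -0.03 to 0.26, adjusted p = 0.159, edgeR), and 164 of its exonic bases are shared with DGKG on the same strand, where reads could be split between the genes. Whether ETV4 and ETV5 differed from each other in response was not tested.

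**Figure D3:**
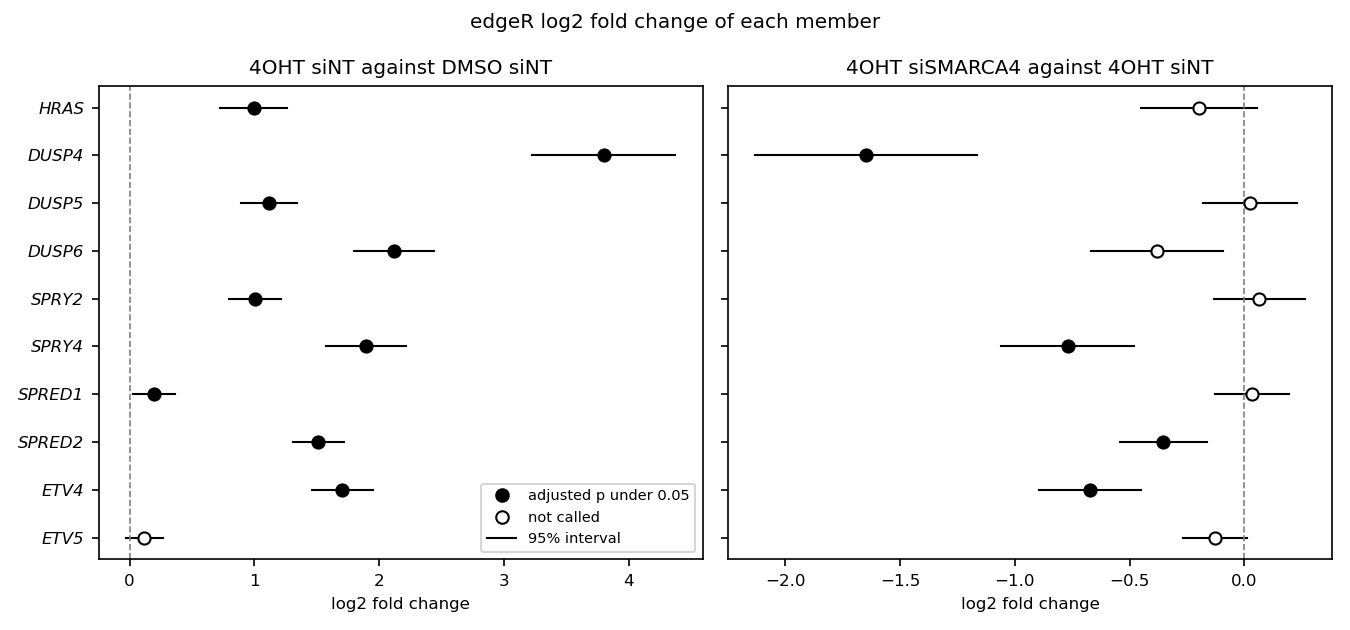
Log2 fold change of each gene with 4OHT in siNT cells (left) and with siSMARCA4 in 4OHT cells (right), from edgeR, with 95% intervals as lines; filled points had an adjusted p under 0.05. With 4OHT 9 points are filled, all to the right of 0, with DUSP4 farthest at 3.80, and with siSMARCA4 4 are filled, DUSP4, SPRY4, SPRED2 and ETV4, all to the left of 0.

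The second question was what knockdown of SMARCA4 did to these genes with RAS activated. No library combined DMSO with siSMARCA4, so effects that depend on RAS and effects that do not cannot be told apart. With siSMARCA4, 4 of the 10 fell (DUSP4, SPRY4, SPRED2 and ETV4) and 0 rose, against 13.8% of all genes called lower and 10.4% called higher. The median log2 fold change was -0.28, against -0.02 over all genes, and the same 4 genes were those whose libraries did not overlap between the groups, as held for 12.0% of all genes. At an unadjusted p under 0.05 none of the 10 was higher, and DESeq2 called 5 lower and none higher. The other 6 were not called. DUSP6 had the interval of -0.67 to -0.09 given above, and HRAS, DUSP5, SPRY2, SPRED1 and ETV5 had intervals within -0.45 and 0.26 on the log2 scale. Among VM libraries alone 6 members were called lower, the 4 above with DUSP6 and ETV5 (-0.19 ± 0.07, SE, adjusted p = 0.0452, edgeR), and 0 higher, against 15.3% and 11.6% of all genes.

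Levels did not return to those of uninduced cells. In 4OHT siSMARCA4 against DMSO siNT 9 members were called higher and 0 lower, where 26.5% and 28.6% of all genes were, and 8 did not overlap, against 36.3% of all genes. The comparison shares its libraries with the others. DUSP4 was still 4.44-fold above DMSO siNT, DUSP6 3.33-fold, SPRED2 2.23-fold, SPRY4 2.18-fold and ETV4 2.04-fold. Only ETV5 was not called there, at -0.01 (95% interval -0.15 to 0.14). The call was lost for HRAS with number 4 libraries alone (0.49, adjusted p = 0.0557, edgeR), and for SPRED1 in 8 alternatives.

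Effects by siRNA number set siSMARCA4 against siNT libraries of the same number, and the labels do not say that a number links them. Differences between the siNT libraries thus enter these effects. The fitted effect on DUSP4 differed between the libraries of the siRNA numbers. With number 2 its 4OHT siSMARCA4 libraries held 12.5, 23.1 and 13.6 CPM against 87.3, 90.6 and 88.9 CPM in 4OHT siNT. With number 4 they held 37.9, 22.9 and 33.3 CPM against 57.8, 63.4 and 61.4 CPM. The number 2 effect was -2.44 ± 0.22 and the number 4 effect -0.96 ± 0.21 (log2, SE), and their difference of -1.48 ± 0.30 passed the test (adjusted p = 0.0303, edgeR), as it did for 1.06% of all genes. No other member passed it in this fit, although HRAS did without the filter on low counts and in DESeq2. Number and tag were not balanced among the knockdown libraries, which were 1 V and 2 VM for number 2 and 2 V and 1 VM for number 4, whereas all 4OHT siNT libraries were VM. The V library of number 2 (2-3V, 23.1 CPM) and the VM library of number 4 (4-2VM, 22.9 CPM) lay side by side, and the part of the tag in the difference between numbers was not tested. SMARCA4 itself fell with both numbers, by 1.63 ± 0.18 and 1.58 ± 0.18 on the log2 scale (SE).

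The tag also went with the level of some members in knockdown cells. SMARCA4 was at 104 ± 21.9 CPM in the V libraries and 71.9 ± 5.53 CPM in the VM libraries (SD, n = 3 each). DUSP4 was at 31.4 ± 7.61 and 16.3 ± 5.71 CPM, DUSP6 at 424 ± 52.6 and 265 ± 26.7 CPM, and ETV4 at 36.1 ± 1.86 and 26.0 ± 2.68 CPM (V and VM, SD, n = 3 each). For DUSP4, DUSP6 and ETV4 every V library lay above every VM library, as it did for SMARCA4. The other 7 members overlapped between the tags, SPRY2 among them at 186 ± 12.1 and 191 ± 31.4 CPM. Of all genes, 11.7% had every V library above every VM library and 10.6% had every one below. In DMSO siNT the 2 V libraries lay below the 3 VM libraries for DUSP6 (means of 93.7 and 109.8 CPM), SPRY4 (44.7 and 70.3 CPM) and SMARCA4 (179.8 and 210.4 CPM) and above them for SPRED2 (38.9 and 33.3 CPM), while the other 7 members overlapped. There 14.1% of all genes had every V library above and 17.3% every one below. The part of residual SMARCA4 in these values was not tested.

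**Figure D4:**
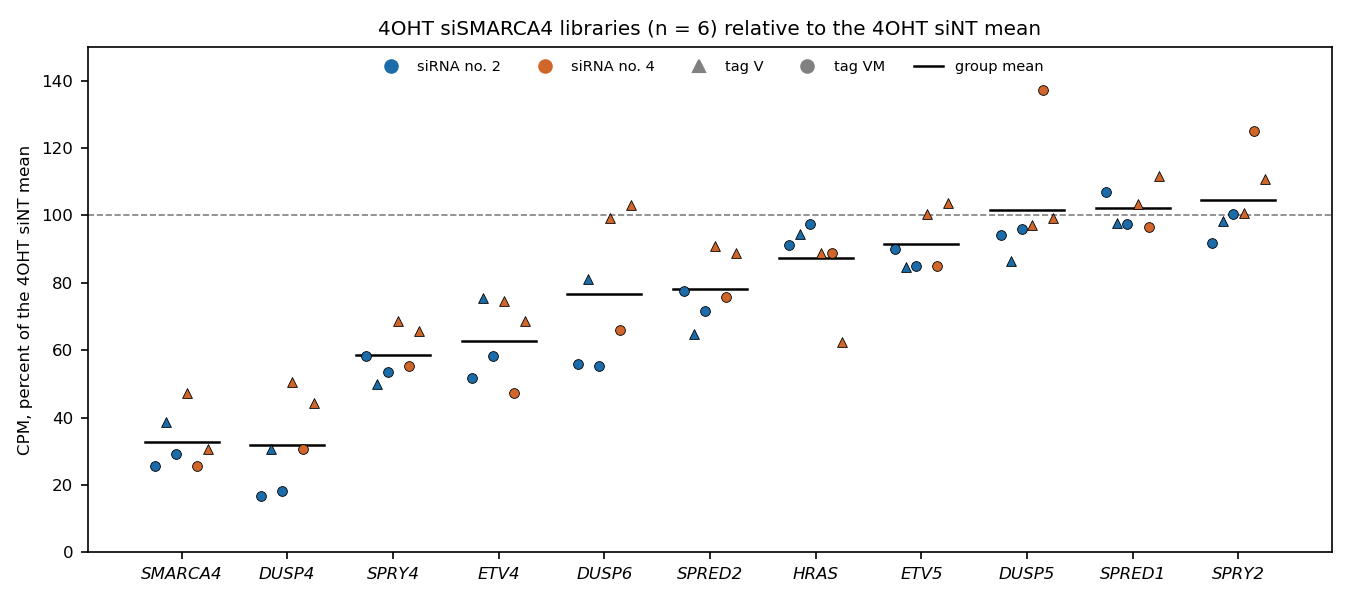
CPM of SMARCA4 and the 10 members in the 6 4OHT siSMARCA4 libraries as a percent of the 4OHT siNT mean (linear axis from 0, dashed line at 100), coloured by siRNA number and shaped by tag, with means as bars. DUSP4 was at 31.9% of the 4OHT siNT mean, SPRY4 at 58.6%, ETV4 at 62.7%, DUSP6 at 76.8% with V libraries at the top, and DUSP5, SPRED1 and SPRY2 near the line.

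By level per kilobase of joined exons, where HRAS counts may hold the fusion transcript, HRAS led in all groups. It was at 817 ± 112 CPM per kilobase in DMSO siNT (SD, n = 5). DUSP5, SPRY2 and DUSP6 followed there, from 33.3 to 26.8 CPM per kilobase, each overlapping the next, and DUSP4 came last at 0.740. In 4OHT siNT DUSP6 had moved to second place at 116 ± 7.57 CPM per kilobase (SD, n = 6), clear of DUSP5 at 72.3 and SPRY2 at 56.1. DUSP4 had reached 10.3 CPM per kilobase and overlapped both its neighbours, ETV5 and SPRED1. With siSMARCA4 DUSP6, at 89.3 ± 24.6 CPM per kilobase (SD, n = 6), again overlapped DUSP5, and DUSP4 was last again at 3.28.

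The rest of the pathway was read from lists of other genes, whose counts stand beside 27.0% of all genes higher and 27.4% lower with 4OHT, and 10.4% and 13.8% with siSMARCA4. Of 5 RAS-family genes read here HRAS rose with 4OHT and 4 fell, the most RRAS2 (log2 -2.17 ± 0.12, SE), a relative of the R-RAS branch. Of 9 tested exchange factors and adaptors, which link receptors to RAS, 3 rose and 2 fell with 4OHT. The exchange factor RASGRP3 gained 1.10 ± 0.24 (log2, SE), from a mean of 2.74 to 5.87 CPM. With siSMARCA4 1 of the 9 was called, as higher. Of 8 tested GTPase-activating proteins, which switch RAS off, 3 rose and 1 fell with 4OHT, namely RASA4 at -2.02 ± 0.21 (log2, SE). RASA4 was at a low level, with means of 6.91, 1.69 and 0.801 CPM in DMSO siNT, 4OHT siNT and 4OHT siSMARCA4. It shares 3012 of its 7744 exonic bases with 2 genes of the same strand. With siSMARCA4 1 of the 8 rose and 3 fell, with RASA2 (named after its values were seen) at 0.74 ± 0.11 and RASA4 at -1.08 ± 0.21 (log2, SE). Among 12 tested RAF, MEK and ERK kinases and scaffolds 3 rose and 4 fell with 4OHT, and 3 rose and 2 fell with siSMARCA4. The kinase gene MAP3K8, at a low level, rose from 0.931 to 5.18 CPM with 4OHT. With siSMARCA4 it stood 0.50 ± 0.13 higher again (log2, SE), with libraries that overlapped 4OHT siNT. MAPK3, the gene of ERK1, fell by 0.36 ± 0.10 with 4OHT and by 0.50 ± 0.09 with siSMARCA4 (log2, SE). Of 12 genes for kinases and transcription factors downstream of ERK, 5 rose and 4 fell with 4OHT. There RPS6KA3 rose by 1.55 ± 0.09, RPS6KA1 rose by 1.08 ± 0.14 and RPS6KA2 fell by 2.35 ± 0.22 (log2, SE). With siSMARCA4 1 of these 12 rose, RPS6KA3 by 0.56 ± 0.08, and 4 fell, RPS6KA1 by 0.53 ± 0.13 among them (log2, SE).

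Feedback genes outside the 10 were counted in the same way, and these small counts are descriptions. Among 8 other tested DUSP genes 3 rose with 4OHT and 1 fell. DUSP3 rose by 1.12 ± 0.07 and DUSP10, which acts on the stress kinases, fell by 1.26 ± 0.09 (log2, SE). With siSMARCA4 1 of these was called higher, DUSP8 at 0.50 ± 0.12 (log2, SE), and 3 lower. DUSP16 rose by 0.89 ± 0.12 with 4OHT and was not called with siSMARCA4 (0.23 ± 0.11), where it stood 1.12 ± 0.12 above DMSO siNT (all log2, SE). Of 9 other feedback genes 5 rose and 1 fell with 4OHT. They were led by SH2B3 (1.82 ± 0.16), an adaptor that restrains cytokine signals, ERRFI1 (1.76 ± 0.10), an inhibitor of the epidermal growth factor receptor, and SPRED3 (1.22 ± 0.14, all log2 with SE). With siSMARCA4 2 of the 9 fell and 0 rose.

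Of 16 other ERK-responsive genes, 11 rose and 1 fell with 4OHT, with a median log2 fold change of 0.81. The immediate early transcription factors EGR3 and EGR2 gained 3.68 ± 0.19 and 2.90 ± 0.31, and the stress-response gene IER3 gained 3.27 ± 0.15 (log2, SE). EGR3 and EGR2 started low, at means of 1.23 and 1.17 CPM in DMSO siNT, and stood at 15.7 and 8.81 CPM in 4OHT siNT. The sphingosine kinase gene SPHK1 had means of 25.7, 155 and 219 CPM in DMSO siNT, 4OHT siNT and 4OHT siSMARCA4. Its difference between the 2 4OHT groups was not called (log2 0.50 ± 0.19, SE, adjusted p = 0.0645, edgeR), and their libraries overlapped. With siSMARCA4, 6 of the 16 fell and 1 rose, with a median of -0.21. EGR2 fell by 1.23 ± 0.27 and the ephrin receptor gene EPHA4 by 1.34 ± 0.29, and the 1 that rose was IER3, at 0.54 ± 0.13 (log2, SE).

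By pattern over the 17 libraries, the genes most like HRAS in log2 CPM were ABCF3 (Pearson r = 0.976), EFHD2 (0.967), PPM1G (0.964), FLYWCH2 (0.962) and ANAPC2 (0.962). The 9 other members were averaged after each was centred and scaled to the same spread, so that each weighed the same. Genes most like this mean were DUSP3 (r = 0.993), XIRP2 (0.988), ENC1 (0.986), LCE1F (0.986) and RAB3D (0.985). The 17 points fall into 3 groups of shared treatment, so that a gene with similar group means has a high r. ENC1 had means of 91.1, 606 and 407 CPM in DMSO siNT, 4OHT siNT and 4OHT siSMARCA4, and DUSP3 of 139, 303 and 249.9 CPM.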

How the data were processed

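Poly(A)-selected, strand-specific RNA-seq of 17 libraries was analysed from 1 table per library. The tables deposited by the authors hold expected counts for genes and repeat loci, given without decimals and without normalisation. The submitters' notes name Cutadapt 4.7, HISAT2 2.2.1 and GRCh38, and the study's methods name TElocal, which shares multi-mapping pairs by estimation, in reverse-stranded mode. Of 62754 gene identifiers, 62700 were in GENCODE 44, which gave symbols, positions and joined exon lengths. The study's methods name Ensembl release 100.

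Locus counts were summed per repeat subfamily and joined with genes. Features were kept by filterByExpr (minimum count 10, minimum total 15) and scaled by TMM. Groups were compared over all 17 libraries by the quasi-likelihood test of edgeR 4.0.16 (R 4.3.3) with Benjamini-Hochberg adjustment over the 19473 genes. Calls are adjusted p under 0.05. CPM use TMM-scaled totals. A test of the difference between siRNA numbers used 1 term per group and number, with siNT and siSMARCA4 libraries matched by number alone. The steps were tested on simulated data. Named list genes were called, did not overlap between groups and had an absolute log2 fold change of at least 1, at most 3 per list and direction. NRAS, MAPK3, the markers CD68, KRT5 and CD3E, and in the knockdown comparison IER3, RASA2, MAP3K8, RPS6KA1, RPS6KA3, DUSP8, DUSP16, TOP2A, CDK1 and BUB1 were named outside this rule, after their values were seen. A planned share of HRAS among RAS genes is not reported here. The members and lists were chosen with earlier results of these data known. Alternatives were DESeq2 1.42.0, other scaling and filters, subsets and covariates for siRNA number and tag, and leaving out each library. Counting error is small at 1500 or more counts per member and group. No column of another sample was present.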

Additional observations from a re-analysis of the deposited data

Results flagged for a closer look

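HRAS in the 4OHT siSMARCA4 library 4-3V, at 2480 CPM, lay far below the other 5 of its group, which were at 3518 to 3866 CPM. DUSP5 in the 4OHT siSMARCA4 library 4-2VM, at 251 CPM, lay far above the other 5, at 159 to 182 CPM. ETV4 in the 4OHT siNT library 4-2VM, at 58.4 CPM, lay above the other 5, at 45.5 to 49.9 CPM. These were the 3 of 36 groups of values in which 1 library stood apart by Dixon's criterion, and chance gives about 1 in 20.

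The knockdown effect on DUSP4 differed between siRNA numbers 2 and 4, by -1.48 on the log2 scale, in a test of the difference itself (adjusted p = 0.0303, edgeR). The numbers also differed in their V and VM libraries, and the part of the tag was not tested. Each effect was taken against 4OHT siNT libraries matched by number alone. Mean DUSP4 was 89.0 CPM for number 2 and 60.9 CPM for number 4 in 4OHT siNT, and 16.4 and 31.4 CPM in 4OHT siSMARCA4.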

How the results depend on the processing

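Over the 10 members and all comparisons, 679 alternative values kept their direction and side of the threshold, 27 lost a call, 12 gained one and 12 turned direction, none of the last a called value other than SPRED1. Taken alone, number 2 libraries turned the knockdown value of HRAS to 0.18, DUSP5 to -0.0845 and SPRED1 to -0.0587, and called ETV5 lower (-0.23). Number 4 libraries alone turned the 4OHT value of SPRED1 to -0.0844, the knockdown value of ETV5 to 0.0420 and its value against DMSO siNT to 0.0926. Leaving out 1 library gave knockdown values of -0.0797 (without siSMARCA4 4-2VM) to 0.0669 for DUSP5 and -0.000371 (without 4OHT siNT 4-1VM) to 0.0763 for SPRED1, and values against DMSO siNT of -0.0484 to 0.0129 for ETV5. It also moved, by over 1.5 times, the knockdown values of HRAS (-0.12 without siSMARCA4 4-3V) and SPRY2 (0.00609 without siSMARCA4 4-2VM to 0.0994 without siSMARCA4 2-1VM) and the 4OHT value of SPRED1 (0.13 without DMSO siNT 2-1V). Leaving out a library changed no count of called members or genes by over 1.5 times.

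Number 4 libraries alone gave 1198 genes called for the knockdown, against 4703, and the difference between siRNA numbers gave 623 genes in DESeq2 and 791 without the filter, against 207. The causes were not tested.

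With a replicate block 9429, 4444 and 9151 genes were called with 4OHT, with the knockdown and between knockdown and DMSO siNT, and DUSP6 was called lower with siSMARCA4 (-0.63). The block was the replicate tag. Libraries with the same full label had deviations with r from -0.45 to 0.30 over 7 pairs, of which 1 was the best match of its library. Libraries that shared the tag but not the siRNA number had r of 0.34 to 0.53 over 3 pairs of DMSO siNT and 4OHT siNT, where pairs that shared neither reached from -0.53 to 0.61, and -0.08 to 0.32 between the other groups. Not every pair was over 0.1, so the tag was not taken to pair the libraries.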
